A study of Rattus norvegicus with 6 samples.

Results

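In rat nucleus pulposus cells kept with or without serum, with no osmotic treatment in the labels, 8 genes of the osmotic stress response were followed. They are Nfat5, the osmolyte transporter genes Slc5a3, Slc6a6 and Slc6a12, the sorbitol-forming enzyme gene Akr1b1, the ion cotransporter gene Slc12a2, the chaperone gene Hspa4l and the water channel gene Aqp1. They were chosen by name, with earlier results of these data known, as NFAT5, genes of its osmotic response and aquaporin 1. All 8 were found among the 17093 genes of the deposited tables. Primary cells from the intervertebral disc of male rats, at passages 3 to 6, were cultured for 48 h either in medium without fetal bovine serum (3 serum-starved libraries) or in medium with 10% serum (3 control libraries). DMEM-F12 with penicillin and streptomycin is given for all samples; the control samples carry the treatment label "no", and their 10% serum is taken from the growth protocol. Nothing in the labels states whether the 3 libraries per group had separate animals or cultures as their source, so the p-values describe library-to-library spread alone, and that spread may be technical.

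Nucleus pulposus cells live in a matrix rich in charged proteoglycan that draws in salt and water, so they are exposed to high and changing osmolarity in the disc. NFAT5, also called TonEBP, is the transcription factor that responds to hypertonicity. It binds tonicity-responsive elements (TonE) and drives genes whose products load the cell with compatible osmolytes, namely myo-inositol, taurine, betaine and sorbitol, in place of salt. Cell volume is set over shorter times by water channels, ion cotransporters, the sodium pump and swelling-activated anion channels.

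Without serum, Nfat5 was 1.52-fold higher and the taurine transporter gene Slc6a6 2.54-fold higher than with serum. Aqp1 was 18.9-fold lower (29.98-fold without serum-starved replicate 3), Hspa4l 2.12-fold lower and Akr1b1 1.18-fold lower. Slc12a2 did not pass the test, and Slc5a3 and Slc6a12 were too low to be tested. Folds are ratios of group means of the deposited values, which are treated as FPKM (fragments per transcript length and library total). The files name no unit, and TPM (the same kind of value scaled to a fixed library total) summed over a wider set of genes cannot be told apart from it here. A log2 fold change is the serum-starved mean less the control mean of log2(value + 1), and a gene was called at an adjusted p of at most 0.05 in limma. Of the 6 tested genes 2 rose and 3 fell, while across all 11493 tested genes 61.1% were called, 31.7% higher and 29.4% lower. The share called among these genes is therefore to be read against a background in which most tested genes were called. The median log2 fold change of the 6 tested genes was -0.14, against 0.03 over all tested genes.

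**Figure D1:**
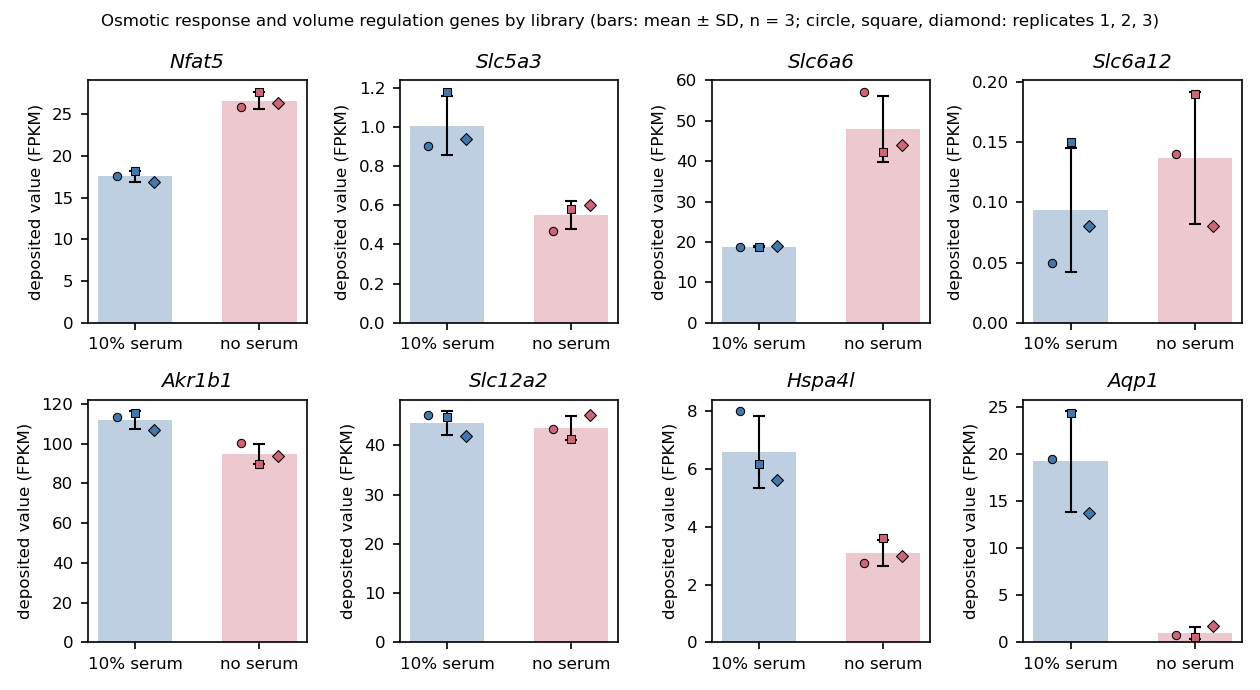
Deposited value (FPKM, linear axis from 0, its own scale in each panel) of the 8 genes in 3 control libraries (10% serum, blue) and 3 serum-starved libraries (no serum, red). Bars are means with SD and symbols are replicates 1, 2 and 3. Nfat5 and Slc6a6 lay higher in all serum-starved libraries, Aqp1, Hspa4l, Akr1b1 and Slc5a3 lower, and the groups overlapped for Slc12a2 and Slc6a12.

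Depth in reads is unknown, because no counts accompany the values. The library sums of the values ran from 522165 to 530095 with serum and from 447788 to 473452 without it, a gap that scaling to the library total would remove; what the gap stands for depends on the unit, which is not named. That scaling shifts the median log2 fold change of all tested genes from 0.03 to 0.20, and the share of called genes that were higher from 51.8% to 69.7%. Of 12 nucleus pulposus marker genes listed, 9 were matched, and their summed level was 201.5 to 251.1 in control and 61.2 to 66.3 in serum-starved libraries. Krt18, a keratin of nucleus pulposus cells, was listed at 0 throughout and Col2a1, the cartilage collagen, reached at most 0.06. Of the 6 tested markers 5 fell, and Car3 rose 25.4-fold from a mean of 1.03 to 26.1. Most of the control sum was Slc2a1 and Acan, with control means of 142 and 77.5 and serum-starved means of 30.7 and 3.05. The 4 matched of 7 leukocyte and macrophage markers summed to 1.69 to 2.54 in control and 2.94 to 4.17 in serum-starved libraries, with Adgre1 at most 0.02. Most of this sum was Cd68, the 1 tested, with means of 1.96 in control and 3.38 in serum-starved libraries. Csf1r, near the floor, went from 0.203 to 0.0567, and Lyz2 from 0 to 0.143. The 6 mural cell markers (pericytes and smooth muscle) summed to 278.5 to 310.6 and to 149.6 to 169.7, but of the 5 tested 2 fell (Des 9.73-fold and Cspg4 2.88-fold), 2 rose (Pdgfrb 1.88-fold and Myh11 1.67-fold) and 1 was not called. The 4 matched of 5 outer annulus and tendon markers summed to 49.7 to 57.7 and to 46.3 to 58.3, with 1 of 3 tested higher, 1 lower and 1 not called. The part of these markers in the results was not tested. In bulk RNA, fewer cells of a type and less RNA per cell cannot be told apart.

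Nfat5 (gene ID 307820) encodes the osmosensitive transcription factor itself. Its level was 17.54, 18.22 and 16.93 in control replicates 1 to 3 and 25.81, 27.7 and 26.36 in serum-starved replicates 1 to 3. The groups did not overlap, and each was tight, with a CV of 3.67% in control and 3.65% in serum-starved libraries. The mean rose from 17.6 ± 0.645 to 26.6 ± 0.972 (SD, n = 3 each), a log2 fold change of 0.57 ± 0.064 (SE) with a limma adjusted p = 0.00012. In size this change was moderate for the experiment, since 27.6% of tested genes changed by more in either direction. Non-overlapping groups were common as well, at 68.2% of all tested genes.

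NFAT5 is the distant relative of the calcium-regulated NFAT proteins, which share its DNA-binding fold but answer to calcineurin. Nfatc4 was the most abundant of these at 35.4 ± 7.01 in control cells and rose 1.44-fold to 51.1 ± 1.15 (n = 3 each; log2 fold change 0.53 ± 0.12, limma adjusted p = 0.00536). Nfatc1 was at 14.5 and 13.4 and Nfatc3 at 13.3 and 15.3 in control and serum-starved cells, and neither passed the test (adjusted p = 0.219 and 0.0608). Nfatc3 was called higher after quantile normalization and after scaling to the library total. Nfatc2 stayed below 0.2 in every library.

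Slc6a6 (gene ID 29464) encodes TauT, which takes up taurine with sodium and chloride. Control replicates 1 to 3 held 18.67, 18.83 and 19.01, and serum-starved replicates 1 to 3 held 57.18, 42.26 and 44.04. The lowest serum-starved library was 2.22-fold above the highest control, and serum-starved replicate 1 stood above the other two. The means were 18.8 ± 0.170 and 47.8 ± 8.15 (n = 3 each), and limma gave a log2 fold change of 1.29 ± 0.109 (SE) at an adjusted p = 2.43e-05. This was the largest rise among the 8 genes, and 268 of the tested genes had a higher log2 fold change. Without serum-starved replicate 1 the log2 fold change was 1.15. The reference table places a non-coding gene that is not in the files across part of Slc6a6, and counting by strand is not stated, so reads of the pair could not be told apart.

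The transporters of the other osmolytes were near the floor. Slc5a3 (gene ID 114507) encodes SMIT1, which takes up myo-inositol with sodium. Its level was 0.90, 1.18 and 0.94 in control and 0.47, 0.58 and 0.60 in serum-starved libraries, with no overlap between the groups. It was 1.83-fold lower without serum but reached a value of 1 in a single library and was not tested with the other genes. With no filter on low values limma gave a log2 fold change of -0.37 ± 0.072 (SE) and an adjusted p = 0.00621. Slc5a3 overlaps Mrps6, a mitochondrial ribosomal protein gene, in the reference table, and its reads could have been split with it. Mrps6 had a mean of 20.8 ± 2.16 with serum and 15.8 ± 1.25 without (n = 3 each; log2 fold change -0.38 ± 0.093, limma adjusted p = 0.00752), so the level of Slc5a3 is uncertain. Slc6a12 (gene ID 50676), which encodes the betaine transporter BGT1, held 0.05, 0.15 and 0.08 in control and 0.14, 0.19 and 0.08 in serum-starved libraries. These ranges overlap and no fold is given at such levels.

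Akr1b1 (gene ID 24192) encodes aldose reductase, which reduces glucose to sorbitol. It was the most abundant of the 8 genes in both groups. Control replicates 1 to 3 held 113.62, 115.22 and 106.79, and serum-starved replicates 1 to 3 held 100.16, 89.98 and 93.87. The groups did not overlap, but the nearest libraries were only 1.07-fold apart. The means were 112 ± 4.48 with serum and 94.7 ± 5.14 without (n = 3 each), a log2 fold change of -0.24 ± 0.066 (SE) with a limma adjusted p = 0.0129. The call was lost after quantile normalization (log2 fold change -0.08, adjusted p = 0.254), after scaling to the library total (-0.05, adjusted p = 0.471) and without control replicate 2 (-0.22, adjusted p = 0.0544). The reference table names 5 Akr1b1 pseudogenes, none of them among the genes of the files, and an overlapping non-coding gene, so how such reads were assigned is open and the value is uncertain.

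Of the aldo-keto reductases related to it, Akr1b8 held 337, 295 and 183 in control and 137, 85.7 and 85.0 in serum-starved libraries, 2.65-fold lower (log2 fold change -1.39 ± 0.249, limma adjusted p = 0.00154). Akr1a1, aldehyde reductase, was the most abundant of the paralogs and fell 1.24-fold from 408 ± 10.3 to 329 ± 12.2 (n = 3 each), a call lost after quantile normalization and after scaling to the total. Akr1b10 stayed below 1 and Akr1b7 was listed at 0 in all 6 libraries. Of the 10 listed relatives of NFAT5, aldose reductase and Hspa4l, 7 were tested, of which 1 rose and 3 fell, against 2 and 1 after quantile normalization or scaling to the library total. Near-identical members of the reductase family can share reads, so their single values are uncertain.

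The promoter of Slc6a6 is shown because it is the osmolyte gene of the 8 that rose and because a TonE-like site could be read there. It was thus chosen on both traits, and a link between them was not tested. RefSeq windows of 250 bases before to 50 bases after a start (GRCr8) were matched for 6 of the 8 genes, all but Nfat5 and Akr1b1. The windows were searched on both strands for GGAAA, the core that NFAT family proteins contact, for TGGAAA, and for the longer TonE consensus, which extends TGGAAA by pyrimidine positions. Each shorter motif lies within the longer ones. GGAAA was found in 62.7% of 33469 windows of this length, TGGAAA in 22.7% and the TonE consensus in 5.98%. In 4 of the 6 windows GGAAA occurred once, and the 29-base stretches around it are printed 5′ to 3′ on the strand that reads GGAAA, with those letters in capitals.
Slc6a6: atcctgctgggtGGAAAaataccagcttg
Aqp1: ggagaggaggaaGGAAAaagttggcaggc
Slc6a12: cacaattgctcaGGAAAgatccgtgagcc
Slc5a3: ttgagaagcggaGGAAAtttaaactgtct

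The Slc6a6 stretch lies at chr4:125752334-125752362 on the minus strand, with the core at -156 to -152 from the start. It is the one of these windows that also held TGGAAA and the TonE consensus. The Aqp1 stretch lies at chr4:85812615-85812643 on the plus strand, with the core at -157 to -153. The Slc6a12 stretch lies at chr4:156257397-156257425 and the Slc5a3 stretch at chr11:44799632-44799660, both on the plus strand. The Hspa4l and Slc12a2 windows held none of the 3 motifs. A match describes letters in a window and is not a measured binding site, and a window without one says nothing about sites elsewhere.

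Enzymes and carriers around the same osmolytes were read from a list of 16 further genes, of which 14 were matched and 11 tested. All tested genes were called higher in 31.7% and lower in 29.4%, at a median log2 fold change of 0.03. Of the 11 genes here 6 rose, 3 fell and 2 were not called, at a median of 0.40. One of those that fell, Isyna1, which makes inositol phosphate from glucose phosphate, was at 7.57 and 6.34 (limma adjusted p = 0.0477) and lost its call under 10 of 15 alternatives, among them the replicate block and the omission of any single library. Cdo1, cysteine dioxygenase, which begins taurine synthesis from cysteine, rose 3.88-fold. It held 9.25, 17.74 and 27.9 in control and 47.56, 84.05 and 81.22 in serum-starved libraries, groups that were wide but did not overlap (log2 fold change 1.98 ± 0.356, limma adjusted p = 0.00157). The myo-inositol carrier gene Slc2a13 (HMIT) rose 2.17-fold, from 2.98 ± 0.0751 to 6.48 ± 0.730, and Impa2, an inositol monophosphatase, 1.98-fold, from 2.67 ± 0.396 to 5.28 ± 0.321 (n = 3 each). Slc38a2, the neutral amino acid transporter SNAT2, was the most abundant gene of the list and rose 1.45-fold from 225 ± 14.8 to 326 ± 29.4 (n = 3 each; limma adjusted p = 0.000881). Aldh7a1, an aldehyde dehydrogenase that can form betaine, fell 1.57-fold from 66.6 ± 1.53 to 42.5 ± 2.01 (n = 3 each). Chdh and Bhmt, which make and consume betaine, stayed below 0.2 in every library.

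Hspa4l (gene ID 294993) encodes OSP94, a chaperone of the Hsp110 family named for its osmotic induction. It held 8.0, 6.17 and 5.6 in control and 2.73, 3.6 and 2.98 in serum-starved libraries, and every serum-starved library was below every control. The means were 6.59 ± 1.25 and 3.10 ± 0.448 (n = 3 each), and limma gave a log2 fold change of -0.88 ± 0.134 (SE) at an adjusted p = 0.000632. With a pseudocount of 5 in place of 1 the log2 fold change was -0.51, since the gene is low. Its relatives were more abundant in both groups. Hspa4 was at 59.6 ± 3.87 and 51.2 ± 2.92 (n = 3 each; log2 fold change -0.21 ± 0.073, limma adjusted p = 0.0313), a call lost under 6 of 15 alternatives, among them the omission of serum-starved replicate 2 or 3 or of control replicate 1 or 2. Hsph1 was at 24.6 and 23.2 and did not pass (adjusted p = 0.654). Differences between these 3 genes were not tested.

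Aqp1 (gene ID 25240) encodes aquaporin 1, a plasma membrane water channel. Control replicates 1 to 3 held 19.5, 24.37 and 13.69, and serum-starved replicates 1 to 3 held 0.74, 0.54 and 1.76. The lowest control was 7.78-fold above the highest serum-starved library, although both groups were uneven, with CVs of 27.9% and 64.6%. The means were 19.2 ± 5.35 and 1.01 ± 0.654 (n = 3 each), and limma gave a log2 fold change of -3.34 ± 0.25 (SE) at an adjusted p = 1.23e-05. Only 64 of the 11493 tested genes had a lower log2 fold change. The ratio of means was 29.98 without serum-starved replicate 3, the highest of its group, and 15.4 to 21.7 without any 1 of the other libraries. The pseudocount of 1 shrinks this change, since the serum-starved values are themselves near 1. With a pseudocount of 0.1 the log2 fold change was -4.23, and with 5 it was -1.99.

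Aqp1 is also abundant in endothelium and red cells, so markers of both were read beside it. Of 9 endothelial markers 5 were matched, and their sum was 8.50 to 11.3 in control and 6.27 to 6.93 in serum-starved libraries, nearly all of it Egfl7, which fell 1.53-fold. The other matched genes were near the floor and were not tested: Pecam1 was between 0.44 and 1.05, Vwf was at most 0.13 and Tie1 at most 0.02. Tek went the other way from Egfl7, from a mean of 0.0067 in control to 0.09 in serum-starved libraries. Cdh5, Kdr, Emcn and Cldn5 were not matched. Of 11 red cell markers 2 were matched, with sums of 0.58 to 1.17 in control and 0.16 to 0.30 in serum-starved libraries. Nearly all of this was Ahsp, too low to be tested, which was 3.04-fold lower without serum, with no overlap between the groups. The other, Alas2, was at most 0.03. The part of either cell type in the fall of Aqp1 was not tested. Of 10 other aquaporin genes listed 5 were matched and none was tested, and the highest, Aqp11, held at most 0.58.

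Slc12a2 (gene ID 83629) encodes NKCC1, which carries sodium, potassium and chloride into shrunken cells. It held 46.21, 45.71 and 41.82 in control and 43.25, 41.3 and 46.14 in serum-starved libraries, so the groups overlapped throughout. The means were 44.6 ± 2.40 and 43.6 ± 2.44 (n = 3 each). The log2 fold change was -0.03 with a 95% interval from -0.19 to 0.13 (limma adjusted p = 0.706). Its sign turned under 3 alternatives, to 0.10 after quantile normalization, 0.16 after scaling to the library total and 0.0043 without serum-starved replicate 2, and it passed the test under none of them.

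Levels per transcript length could also be ordered within each group. In control cells the order was Akr1b1, Slc12a2, Aqp1, Slc6a6, Nfat5, Hspa4l, Slc5a3 and Slc6a12, and Aqp1 and Slc6a6 were the neighbours whose libraries overlapped. The Aqp1 libraries, from 13.69 to 24.37, also spanned those of Nfat5, from 16.93 to 18.22, so their order is not settled. In serum-starved cells the order was Akr1b1, Slc6a6, Slc12a2, Nfat5, Hspa4l, Aqp1, Slc5a3 and Slc6a12. There Slc6a6 and Slc12a2 overlapped, as did Aqp1 and Slc5a3. Aqp1 was next to Slc6a6 in the order with serum and next to Slc5a3 without it.

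**Figure D2:**
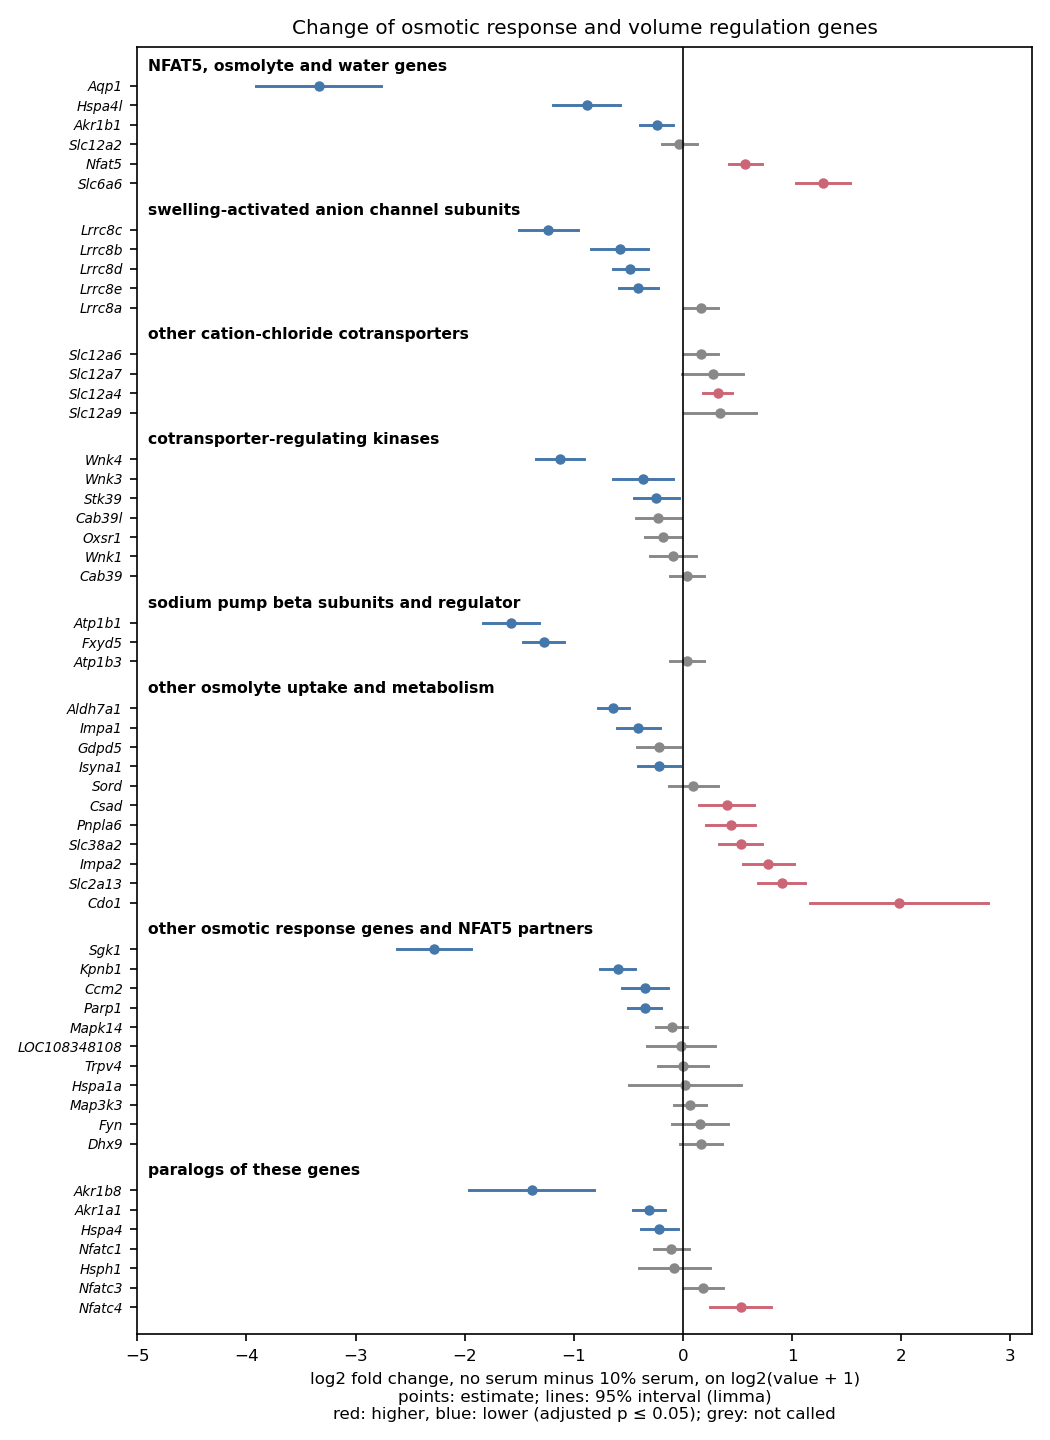
Log2 fold change (no serum minus 10% serum, on log2(value + 1)) with its 95% interval for the 6 tested genes and other tested osmotic and volume genes, grouped by list. Red genes were called higher, blue ones lower and grey ones were not called; Aqp1 at -3.34 lies farthest to the left and Cdo1 at 1.98 farthest to the right.

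Beyond the 8 genes, 78 symbols of osmotic and volume control were listed, 70 were matched and 50 were tested. There 8 rose, 20 fell and 22 were not called, at a median log2 fold change of -0.10. Over all tested genes 61.1% were called, 31.7% higher and 29.4% lower, at a median of 0.03. The counts of each single list are to be read against the same shares. The split of the 50 genes depended on the scaling, with 18 higher and 12 lower after scaling to the library total. It was 12 and 18 after quantile normalization.

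The swelling-activated anion channel releases chloride and organic osmolytes, taurine among them, and is built from LRRC8 proteins, of which LRRC8A is the obligatory subunit. Of its 5 subunit genes 4 fell, where 29.4% of all tested genes were called lower. Lrrc8c fell 2.75-fold, from 11.44, 8.51 and 9.05 in control to 3.96, 3.30 and 3.30 in serum-starved libraries (log2 fold change -1.23 ± 0.118, limma adjusted p = 4.97e-05). Lrrc8b fell 1.57-fold, Lrrc8e 1.38-fold and Lrrc8d, the most abundant, 1.41-fold from 50.9 ± 3.64 to 36.1 ± 0.307 (n = 3 each). These 4 calls were also made under every alternative that was run. Lrrc8a was at 15.2 ± 0.386 and 17.1 ± 0.903 and did not pass (log2 fold change 0.16 ± 0.068, limma adjusted p = 0.067). Its groups did not overlap, as for 68.2% of all tested genes, and it was called higher after quantile normalization and after scaling to the library total.

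**Figure D3:**
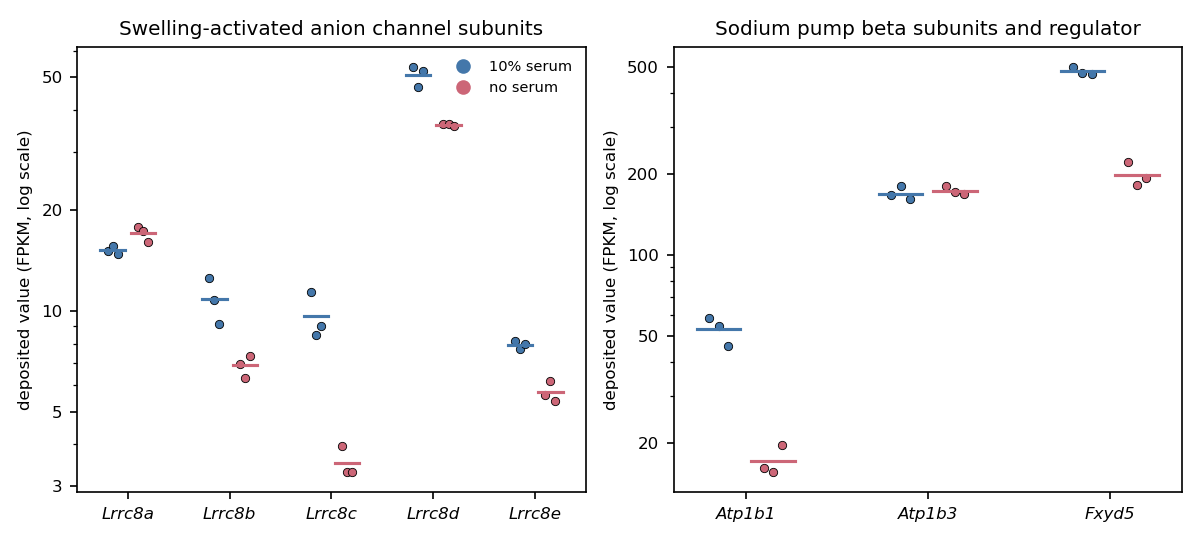
Deposited value (FPKM, log axis) of the swelling-activated anion channel subunit genes (left) and of 2 sodium pump beta subunit genes with the regulator Fxyd5 (right) in control (blue) and serum-starved (red) libraries, with points for libraries and lines for means of 3. Lrrc8b to Lrrc8e, Atp1b1 and Fxyd5 lie lower without serum. Lrrc8a, which was not called, lies slightly higher in every serum-starved library, and the groups of Atp1b3 overlap.

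The sodium pump holds the sodium gradient that the osmolyte transporters use. The beta subunit gene Atp1b3 was at 169 ± 9.62 and 174 ± 6.46 (n = 3 each) and did not pass the test (limma adjusted p = 0.651), although it was called higher after quantile normalization and after scaling to the total. Another beta subunit gene, Atp1b1, fell 3.09-fold, from 58.13, 54.62 and 45.94 to 16.16, 15.58 and 19.58 (log2 fold change -1.57 ± 0.11, limma adjusted p = 8.86e-06). Fxyd5, a small regulator of the pump, fell 2.42-fold from 483 ± 14.7 to 199.5 ± 19.8 (n = 3 each).

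NKCC1 is switched on by WNK kinases through SPAK (Stk39) and OSR1. Of 7 tested genes of this cascade 3 fell and 4 did not pass. Wnk4 fell 2.51-fold, from 9.0, 10.39 and 8.23 to 3.46, 3.77 and 3.77 (log2 fold change -1.12 ± 0.096, limma adjusted p = 2.64e-05). Wnk3 was near 1 in both groups and fell 1.62-fold, and Stk39 fell 1.24-fold from 3.93 ± 0.222 to 3.17 ± 0.304 (n = 3 each). The call for Stk39 was lost under 7 of 14 alternatives, among them the omission of serum-starved replicate 1 or 3 or of control replicate 1 or 2, and that for Wnk3 under 4 of 11, among them the omission of any single serum-starved library. Cab39, a partner of both downstream kinases and the most abundant gene of the list, was at 45.5 and 46.6 and did not pass (adjusted p = 0.659), but was called higher after scaling to the library total. Oxsr1, the gene of OSR1, and Cab39l were just above the threshold (adjusted p = 0.0521 and 0.0557) and were called lower after median-ratio scaling, with library weights and without control replicate 3, and Cab39l also without serum-starved replicate 1. The number of genes of the cascade called lower ran from 1 to 5 over the alternatives. Among the potassium-chloride and related cotransporters 4 of 8 listed genes were tested, of which Slc12a4 (KCC1) rose 1.26-fold from 27.5 ± 0.913 to 34.6 ± 0.205 (n = 3 each; limma adjusted p = 0.00179) and 3 did not pass. All 4 were called higher after scaling to the library total, 3 with library weights and 2 with the replicate block. Slc12a7 was also called without control replicate 3 and Slc12a9 without control replicate 2.

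Among 12 other osmotic response genes and NFAT5 partners 11 were tested, of which 4 fell and 7 did not pass. Sgk1, a kinase induced by both serum and hypertonicity that acts on sodium transport, fell 5.17-fold, from 75.9, 71.07 and 55.02 to 15.82, 12.03 and 11.25 (log2 fold change -2.29 ± 0.148, limma adjusted p = 5.46e-06). Kpnb1, the nuclear import receptor importin beta, was the most abundant of the list and fell 1.52-fold from 92.1 ± 6.64 to 60.5 ± 2.20 (n = 3 each). Ccm2, a scaffold for osmotic p38 signalling, and Parp1, a nuclear enzyme that can associate with NFAT5, each fell 1.29-fold. Both calls were lost after scaling to the library total (adjusted p = 0.105 and 0.0692), under which 2 genes of the list were called higher and 2 lower. Mapk14, the p38 kinase itself, was at 21.5 and 19.9 and did not pass (adjusted p = 0.182).

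**Figure D4:**
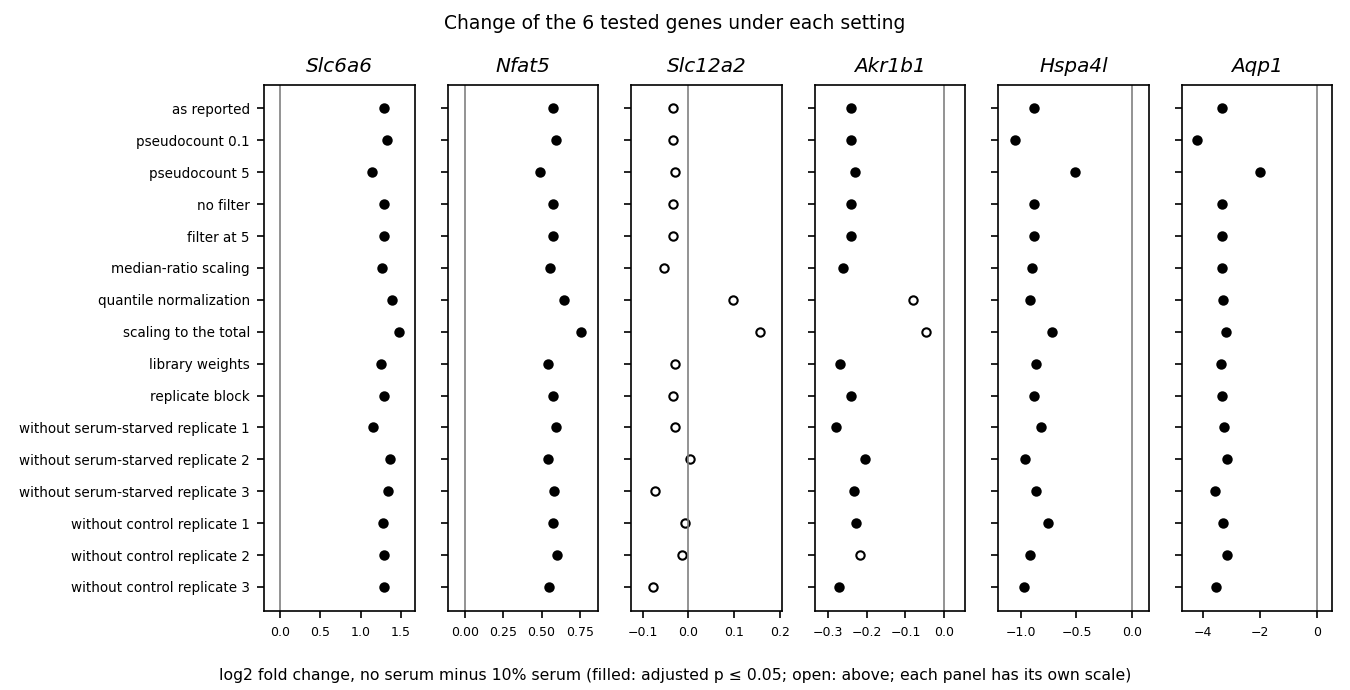
Log2 fold change (no serum minus 10% serum) of the 6 tested genes as reported and under each of 15 other settings, with filled symbols for an adjusted p of at most 0.05 and its own scale in each panel. Nfat5, Slc6a6, Hspa4l and Aqp1 stay on their side of 0 with filled symbols throughout, Akr1b1 loses the call under 3 settings, and Slc12a2 lies around 0.

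The genes whose log2(value + 1) followed Nfat5 most closely over the 6 libraries were Sft2d2 (Pearson r = 0.9997), N4bp2 (0.9996) and Snx16 (0.9989). For Aqp1 they were Rnft1 (0.9986), Klf2 (0.998) and Jagn1 (0.9977). These are descriptions over 6 points that share the 2 culture conditions: 123 of 8579 genes compared had an r above 0.99 with Nfat5, and 36 with Aqp1.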

How the data were processed

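RNA from 6 libraries was sequenced after ribosomal RNA depletion and random priming, per the labels' protocols. The authors deposited 1 value per gene and library, rounded to 2 decimals, in files whose headers name no unit; these deposited values are treated as FPKM, since they are not whole numbers and library sums differ, which TPM over a wider gene set would also give. The tools named in the submitters' processing notes are HISAT2 and StringTie, beside bcl2fastq 2.0, limma and DESeq2, with no role or order. The build named there is mm10, a mouse build, whereas the files hold rat gene identifiers, of which 15927 of 17093 (93.2%) matched a GRCr8 table used for names and promoter sequences. Strand and multiple matches in counting are not given in the sources used here.

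Values were analysed as log2(value + 1) with limma 3.58.1 in R 4.3.3 (intensity trend, treatment as the only term, 4 residual degrees of freedom, Benjamini-Hochberg adjustment over all tested genes, threshold 0.05). A gene was tested if 3 or more libraries reached a value of 1, which left out 5600. The fit was also run on simulated data in which few genes were changed. In the deposited data most tested genes were called, so that run does not bear on the scaling. With 3 libraries against 3, an exact two-sided permutation test of a single gene cannot go below p = 0.1. Intervals are 95%. Joins used pandas 2.3.3 under Python 3.11.15 (numpy 2.4.6), and plots matplotlib 3.10.9.

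The 8 genes and the lists were chosen with earlier results of these data known. Beyond the 8, the rule named up to 4 called genes with the largest change in each list, its most abundant gene, and the 3 genes most like Nfat5 and most like the gene with the largest change. Other genes that did not pass or were not tested, marker genes and Mrps6 were named after their values were seen. Single values of some listed genes are not reported here; counts over the lists include them. Alternatives were the pseudocount, the filter, the scaling, library weights, a replicate block and leaving out each library.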

Additional observations from a re-analysis of the deposited data

How the results depend on the processing

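Over 15 alternatives, Nfat5 (log2 fold change 0.49 to 0.76), Slc6a6 (1.14 to 1.47), Hspa4l (-1.06 to -0.51) and Aqp1 (-4.23 to -1.99) kept their direction and their call, with the highest limma adjusted p being 0.00362, for Hspa4l. Akr1b1 kept its direction (-0.28 to -0.05) and lost its call under 3 alternatives. Slc12a2 was never called, and its log2 fold change turned to 0.10 after quantile normalization, 0.16 after scaling to the library total and 0.0043 without serum-starved replicate 2; leaving out 1 library gave -0.077 to 0.0043. The number of the 8 genes called was 4 to 6, with 6 when no filter was applied, because Slc5a3 was then tested. Over all genes 5533 to 7810 were called, but the number tested differed. It was 5533 of 8837 with the filter at 5, 7581 of 16684 with no filter and 7810 of 11493 with library weights. Same-numbered libraries of the groups did not deviate together (correlations of deviations 0.037, -0.162 and 0.101). With 3 libraries per group this cannot settle whether the numbers pair them. With the replicate block 6801 of 11493 tested genes were called, 5 of the 8 genes among them, and 26 of the other osmotic and volume genes in place of 28. Low values limit what can be said of Slc5a3 and Slc6a12, and the depth in reads is unknown.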
